A study of Mus musculus with 4 samples.

Results

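The T cell receptor beta locus of the mouse supplies the gene segments from which every beta chain is built, and its use was read from RNA of regulatory T cells. The segments were taken by name: a gene row belonged to the set when its identifier matched a symbol beginning with Trbv (variable, V), Trbd (diversity, D), Trbj (joining, J) or Trbc (constant, C). This gave 53 of the 50600 gene rows, of which 35 were Trbv, 2 Trbd, 14 Trbj and 2 Trbc. No measured value entered the choice. All 53 lay on chromosome 6 of the mm10 genome, at chr6:40891229-41558452, and all had the same coordinates in GENCODE release M21. By that annotation 22 of the Trbv rows were V genes and 13 were V pseudogenes, and 1 of the 14 Trbj rows, Trbj2-6, was a pseudogene.

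The 4 libraries formed 1 group of primary regulatory T cells of strain C57BL/6NJ, with no untreated or other comparison group among them. Names in the file headers carry the words activated and 72 h, and the labels link a protocol for in vitro differentiation of CD4+ T cells. The assay is labelled total RNA-seq, while the linked library protocol is for poly(A)+ RNA. The sex was not collected and the age is unknown, per the labels.

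The labels carry 1 donor identifier for the 4 libraries, but the sex-linked RNAs split them. Xist stood at 173 and 199 TPM in replicates 1 and 2, against 0.592 and 0.758 TPM in replicates 3 and 4. The Y-linked gene Eif2s3y was at 0.0874 and 0.133 TPM in replicates 1 and 2, against 46.7 and 62.7 TPM in replicates 3 and 4, so the libraries go against the single identifier. TPM is a level corrected for gene length and library depth. How many animals gave the cells cannot be read from the files, and p-values measure the spread between these libraries alone. The 4 libraries held between 51460018 and 121477975 counts, a ratio of 2.36. All 6 regulatory T cell markers were above 1 TPM in every library, among them Foxp3, the lineage transcription factor, at 448 ± 27.8 TPM (SD, n = 4). Markers of other cells were low: the summed level was 12 to 16.4 TPM for CD8 T cells, with Cd8b1 the main part, and 3.12 to 3.72 TPM for NK cells, with Ncr1 at 0 counts. It was 0.906 to 1.61 TPM for gamma-delta T cells, 0.764 to 0.892 TPM for thymocytes, 0.159 to 0.339 TPM for invariant NKT cells, 0.346 to 1.20 TPM for B cells and 0.00929 to 0.0966 TPM for myeloid cells, with Lyz2 at 0 counts.

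In a developing thymocyte the RAG proteins first join a D to a J segment and then a V segment to the joined DJ, and the transcript is spliced to the constant gene that follows. The junction of V, D and J forms the loop of the beta chain that contacts peptide, and V encodes the part that contacts the MHC molecule. The mouse locus has a row of V segments followed by 2 clusters, each made of a D segment, a set of J segments and a constant gene, and Trbv31 lies beyond the second constant gene in the opposite orientation. In the files Trbv31 is the single member on the minus strand, at chr6:41557691-41558452, and Trbv1 is the most upstream, at chr6:40891229-40891885.

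The D and J segments are printed because their whole sequence is short enough to be read beside their counts. All sequences are GENCODE M21 transcripts on mm10, plus strand unless said otherwise, 5′ to 3′. In the J segments capitals mark matches to a TTN codon, a GGN codon, any codon and a GGN codon in a row, with N any base, which takes in the codons of the phenylalanine, glycine, any residue, glycine stretch that ends the junction in most J segments, and also TTA and TTG, which encode leucine. It was searched on the given strand.
Trbd1, chr6:41533201-41533212: gggacagggggc
Trbd2, chr6:41542163-41542176: gggactgggggggc
Trbj1-1: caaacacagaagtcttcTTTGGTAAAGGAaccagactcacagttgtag
Trbj1-2: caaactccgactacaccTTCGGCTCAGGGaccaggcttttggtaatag
Trbj1-3: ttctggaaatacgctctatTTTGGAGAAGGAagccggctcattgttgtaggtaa
Trbj1-4: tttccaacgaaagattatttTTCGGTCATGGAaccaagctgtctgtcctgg
Trbj1-5: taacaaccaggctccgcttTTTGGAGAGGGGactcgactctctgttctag
Trbj1-6: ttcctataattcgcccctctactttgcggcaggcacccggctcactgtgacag
Trbj1-7: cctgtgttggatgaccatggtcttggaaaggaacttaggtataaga
Trbj2-1: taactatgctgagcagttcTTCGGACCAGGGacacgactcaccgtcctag
Trbj2-2: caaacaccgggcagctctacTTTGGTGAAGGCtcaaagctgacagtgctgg
Trbj2-3: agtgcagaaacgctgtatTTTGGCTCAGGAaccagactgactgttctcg
Trbj2-4: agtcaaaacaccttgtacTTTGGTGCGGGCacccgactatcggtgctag
Trbj2-5: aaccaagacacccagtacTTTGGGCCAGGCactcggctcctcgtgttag
Trbj2-6: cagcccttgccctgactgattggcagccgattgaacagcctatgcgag
Trbj2-7: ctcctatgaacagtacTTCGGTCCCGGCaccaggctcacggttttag
The first cluster runs from Trbj1-1 (start 41533864) to Trbj1-7 (end 41535687) and the second from Trbj2-1 (start 41542754) to Trbj2-7 (end 41543856). The motif was found in 11 of 14 J segments and in 90 of 10863 windows of 49 bases, the median J length, over all V transcripts. The letters were not found in Trbj1-6, Trbj1-7 or the pseudogene Trbj2-6.

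The 3′ ends of the V segments of highest use are printed because that end is joined to D. Capitals mark TGTGCC, which holds the codon of the cysteine at which the junction starts, on the strand of the gene.
Trbv31, minus strand: ctctggcttctacctcTGTGCCtggagtct
Trbv19: tggccgtttttctcTGTGCCagcagtatag
Trbv13-2: catcagtgtacttcTGTGCCagcggtgatg
Trbv3: gtgtacttcTGTGCCagcagcttagccaca
Trbv1: cagaaccttgtactgcacctgcagtgcaga
Trbv13-1: catctttgtacttcTGTGCCagcagtgatg
Trbv13-3: cagctgtatatttcTGTGCCagcagtgatg
These letters were in the last 30 bases of 14 of 22 V genes and 7 of 13 V pseudogenes, and in 2.72% of 11528 windows of 30 bases over all V transcripts. The Trbv1 end does not hold them. The 3 genes of the V13 subgroup, which share ends of this kind, were 78.6% to 90.6% identical over their whole transcripts, the closest pair being Trbv13-2 and Trbv13-3.

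Transcripts of the beta locus were a similar part of each library. The 53 rows took 47007, 25128, 29055 and 21862 counts in replicates 1 to 4, which was 0.0387%, 0.0402%, 0.0394% and 0.0425% of all counts. Most of these counts were on the constant genes, at 262 ± 11.6 CPM (counts divided by library depth; SD, n = 4), and the V segments followed at 121 ± 7.75 CPM. The J segments stood at 16.7 ± 0.747 CPM and the D segments at 2.96 ± 0.435 CPM. In bulk RNA, fewer cells of a type and less RNA per cell cannot be told apart.

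What a row can hold depends on how fragments were assigned. The options in the authors' file headers do not include those that count a fragment for several genes, or that count fragments mapped to several places. A fragment that reaches from a V segment into a J segment, or from a J segment into a constant gene, was therefore not counted on both rows. It could add to a single row or to neither, and how often each occurred was not tested. Counts on J and D rows come from fragments assigned to that row alone, and whether these were rearranged, unspliced or germline transcripts was not tested.

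**Figure D1:**
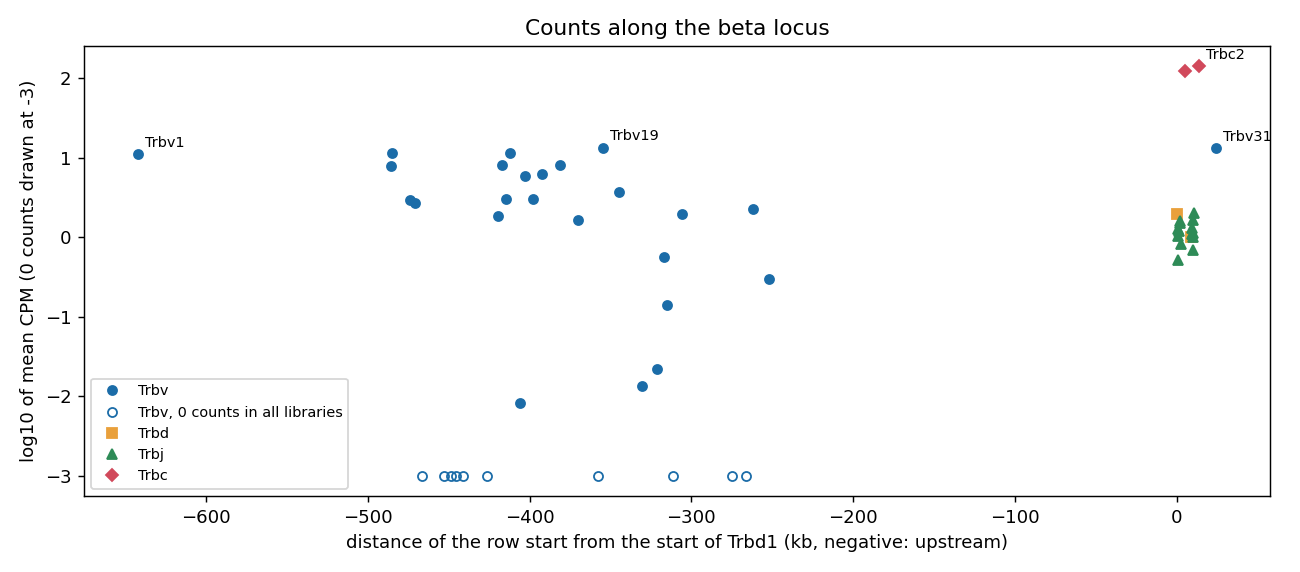
Log10 of the mean CPM of each of the 53 rows against the distance of the row's start from the start of Trbd1 in kb, with 0 counts drawn at -3. The constant genes are highest, the V segments Trbv1 and Trbv31 at the outer ends of the locus are near Trbv19 in level, and 10 V pseudogenes have 0 counts.

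The V rows divided by their annotation. Of the 22 V genes, 19 had at least 50 counts in every library, and the exceptions were Trbv21, Trbv23 and Trbv30. Trbv23 had 45, 51, 40 and 28 counts in replicates 1 to 4, and Trbv30 had 34, 20, 13 and 22. Trbv21 had 4 counts in replicate 3 and 0 in the other libraries, which makes it the V gene of lowest count.

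Of the 13 V pseudogenes, 10 had 0 counts in all 4 libraries, namely Trbv6, Trbv7, Trbv8, Trbv9, Trbv10, Trbv11, Trbv18, Trbv25, Trbv27 and Trbv28. A count of 0 allows up to 3 counts, or 0.0247 to 0.0583 CPM depending on the library, counting error only. The other pseudogenes had few counts: Trbv24 had 18, 2, 14 and 10, Trbv22 had 3, 4, 0 and 0, and Trbv12-3 had 0, 0, 1 and 1. Pseudogenes thus held 0.143 ± 0.0458% of V counts (SD, n = 4). The annotations disagree on a pair of rows. RefSeq types Trbv24 as a V segment where GENCODE has a pseudogene, and it types Trbv29 as a pseudogene where GENCODE has a V gene. Trbv29 had 351, 150, 112 and 116 counts, more than any V row that GENCODE calls a pseudogene.

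V use was uneven but spread over many segments. The 5 segments of highest mean share, Trbv31, Trbv19, Trbv13-2, Trbv3 and Trbv1, together took 52.0%, 48.9%, 49.9% and 50.1% of V counts in replicates 1 to 4. The inverse Simpson index, the number of equally used segments that would give the same evenness, was 13.2, 14, 13.6 and 13.5 (13.6 ± 0.340; SD, n = 4).

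Trbv31, whose older RefSeq name is Tcrb-V14, took 12.6%, 9.87%, 9.82% and 11.7% of V counts in replicates 1 to 4. Trbv19, older name Tcrb-V6, took 10.1%, 11.6%, 11.1% and 11.2%. Their means were both 11%, Trbv31 was the higher in 2 of 4 libraries, and their ranges overlapped.

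Trbv13-2, older name Tcrb-V8.2, took 10.1%, 8.79%, 9.88% and 9.33% of V counts. Trbv3 took 9.05%, 10.1%, 9.16% and 9.68%. Trbv1 took 10.1%, 8.54%, 9.94% and 8.25%. These 3 segments interleaved and could not be ordered. Trbv19 exceeded Trbv13-2 in 4 of 4 libraries, by 1.47 ± 1.18 percentage points, but in replicate 1 they had 1370 and 1369 counts. Their ranges did not overlap but nearly met. Trbv1 lay above Trbv19 in replicate 1, at 10.116% against 10.094%.

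The next group began lower. Trbv1 exceeded Trbv13-1 in 4 of 4 libraries by 2.52 ± 1.34 points (SD, n = 4). Trbv13-1, older name Tcrb-V8.3, took 6.16%, 6.99%, 6.60% and 7.03%, Trbv16 took 6.59%, 6.13%, 6.88% and 6.93%, and Trbv2 took 6.65%, 6.84%, 7.07% and 5.60%. These 3 also overlapped.

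Trbv15 ran 4.17%, 4.79%, 5.37% and 6.02% in replicates 1 to 4, with a mean of 5.09 ± 0.790%. Trbv13-3, older name Tcrb-V8.1, held closer, at 4.66%, 4.89%, 4.67% and 5.09%. After Trbv13-3 came a step of 1.75 ± 0.472 points to Trbv20, which stood at 3.08 ± 0.276%.

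Below Trbv20 the segments formed a slope with no clear break until Trbv23. Trbv14 stood at 2.53 ± 0.379%, Trbv12-2 at 2.47 ± 0.217%, Trbv4 at 2.44 ± 0.290% and Trbv5 at 2.22 ± 0.0612% of V counts. Most bases of Trbv4 and Trbv5 are shared with another gene, so their place in this order is uncertain. Trbv29 followed at 1.89 ± 0.532%, then Trbv26 at 1.62 ± 0.519%, Trbv12-1 at 1.53 ± 0.223% and Trbv17 at 1.36 ± 0.380%. Among the 22 segments at the top of the order there are 21 neighbouring pairs, of which 6 kept their order in 4 of 4 libraries and 4 had ranges that did not overlap.

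**Figure D2:**
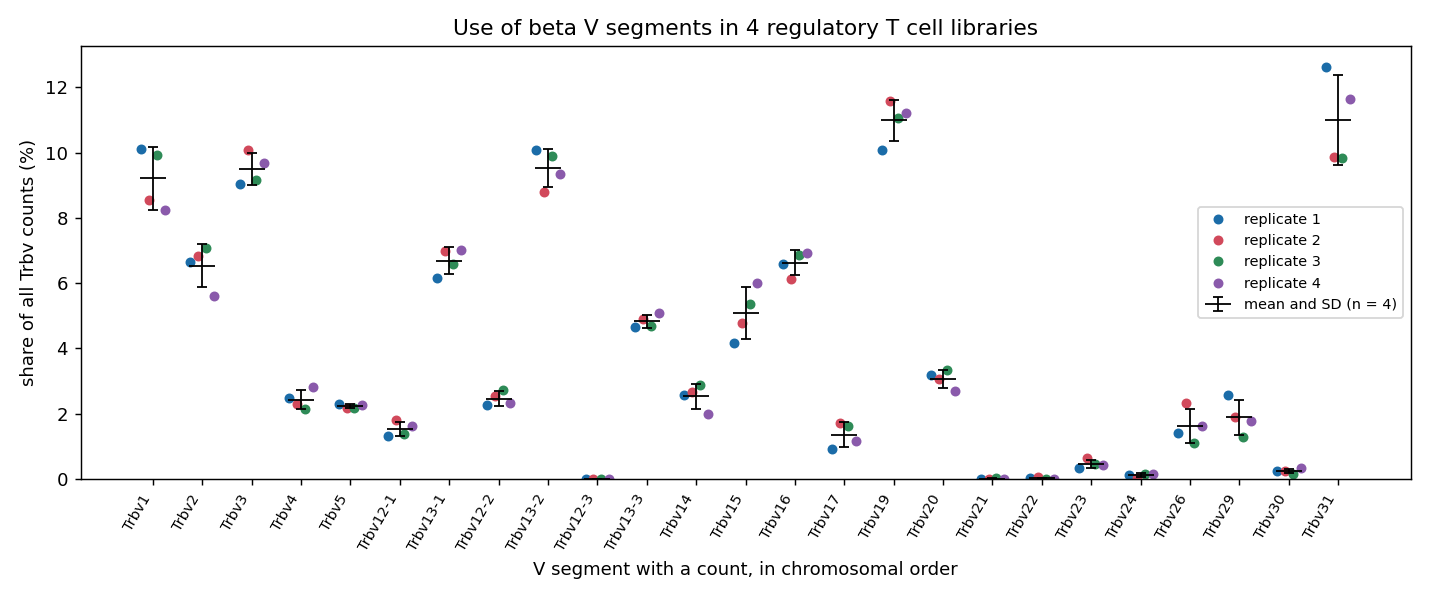
Share of all Trbv counts (%) held by each V segment with any count, in chromosomal order, with 1 point per library and the mean and SD over 4 libraries. Trbv31 and Trbv19 average 11% each, and the segments from Trbv20 to Trbv30 have means of 3.08% or less.

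Segment length changed the order at the top. Trbv19 has 566 exon bases, against 340 for Trbv13-2, so plain counts favour it. Per length, Trbv13-2 took 11.4% of V levels, Trbv31 10.7%, Trbv1 8.98%, Trbv3 8.49% and Trbv19 7.90%. In TPM, Trbv13-2 averaged 115, Trbv31 108 and Trbv19 80.1.

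Segments of high use lay at both ends of the locus and within it. The most upstream segment, Trbv1, held 9.21 ± 0.954% of V counts, the 33 rows from Trbv2 to Trbv30 held 79.8 ± 1.82%, and Trbv31, downstream of Trbc2, held 11 ± 1.39% (SD, n = 4). Within the Trbv2 to Trbv30 block, Trbv2 and Trbv3 at its upstream edge had 6.54 ± 0.649% and 9.49 ± 0.482%. The run from Trbv6 to Trbv11, all pseudogenes, had 0 counts, and every row from Trbv21 to Trbv30 had a mean share of 1.89% or less. Trbv30, the V segment nearest to Trbd1 on the upstream side, had 0.247 ± 0.0757%.

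Some V rows share bases with another gene on the same strand, where a fragment that lies wholly in exons of both is not assigned. Of the 393 exon bases of Trbv4, 295 (75.1%) lie in exons of 5830405F06Rik, and of the 368 of Trbv5, 292 (79.3%) do. That gene had 57, 48, 25 and 30 counts. The counts of Trbv4 and Trbv5 therefore come from fragments that reach the rest of their exons. Their shares leave out fragments within the shared bases, and their per-length values still divide by all exon bases. Both are therefore low by an amount that was not measured, and both segments could stand higher in the order. The pseudogene Trbv8 lies wholly inside exons of AC153851.1, so its 0 counts carry no information on its use, and Trbv10 shares 15.2% of its bases with that gene, which also had 0 counts.

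The V12 and V13 subgroups, which have several close members, keep sequence of their own. Of the 50-base stretches in the V12 and V13 transcripts, 98.8% to 100% occurred in no other gene's transcript. Trbv12-2 had 307, 202, 236 and 152 counts in replicates 1 to 4, and Trbv12-1, which is 87.4% identical to it, had 178, 143, 120 and 107. Trbv12-2 was the higher in 4 of 4 libraries.

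The D segments had counts despite lengths of 12 and 14 bases. Trbd1 had 224, 142, 130 and 101 counts in replicates 1 to 4, and Trbd2 had 103, 83, 68 and 46. Trbd1 was the higher in every library, with 200 ± 23.1 Trbd1 counts for each 100 Trbd2 counts (SD, n = 4). A fragment counted on so short a row extends past it, and the sequence it extends into was not read.

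Counts were spread more evenly over the J rows than over the V rows. Whether the J counts come from joined segments was not tested. Of the 13 J genes, 8 had at least 50 counts in every library and 5 fell under 50 in some. The inverse Simpson index was 12.4, 12.6, 12.4 and 11.3 of a possible 14 (12.2 ± 0.586; SD, n = 4). None of the 13 neighbouring pairs in the order of mean share kept its order in all 4 libraries, so the J segments cannot be ranked pair by pair.

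Trbj2-7 had the highest mean, at 9.06%, 10.6%, 12.3% and 16.8% of J counts in replicates 1 to 4 (12.2 ± 3.33%). Trbj1-1 had the lowest, at 3.48%, 2.81%, 2.73% and 3.18% (3.05 ± 0.349%). Those ranges do not overlap, and replicate 4 is the high library for Trbj2-7.

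The annotated pseudogene Trbj2-6, one of the J segments without the motif, had 232, 77, 133 and 82 counts and a share of 9.81 ± 1.99%, behind Trbj2-7 alone. Counts on this row do not tell whether the segment was joined to a V segment. Trbj1-6, also without the motif, stood at 10.7%, 9.51%, 9.00% and 6.12%. Trbj1-7 was the most uneven member, at 2.24%, 8.79%, 4.34% and 3.92%, with replicate 2 high.

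Of the remaining segments of the first cluster, Trbj1-5 stood at 9.38 ± 0.495%, Trbj1-3 at 7.55 ± 1.84%, Trbj1-4 at 7.01 ± 1.47% and Trbj1-2 at 6.23 ± 0.443%. In the second cluster, Trbj2-1 stood at 7.76 ± 0.591%, Trbj2-3 at 6.72 ± 2.01%, Trbj2-2 at 6.52 ± 0.881%, Trbj2-5 at 6.05 ± 1.51% and Trbj2-4 at 4.09 ± 1.65% (SD, n = 4). Trbj2-4 had 107, 40, 68 and 16 counts. Its shares were 5.33%, 3.62%, 5.47% and 1.96% in replicates 1 to 4, so replicate 4 was low.

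**Figure D3:**
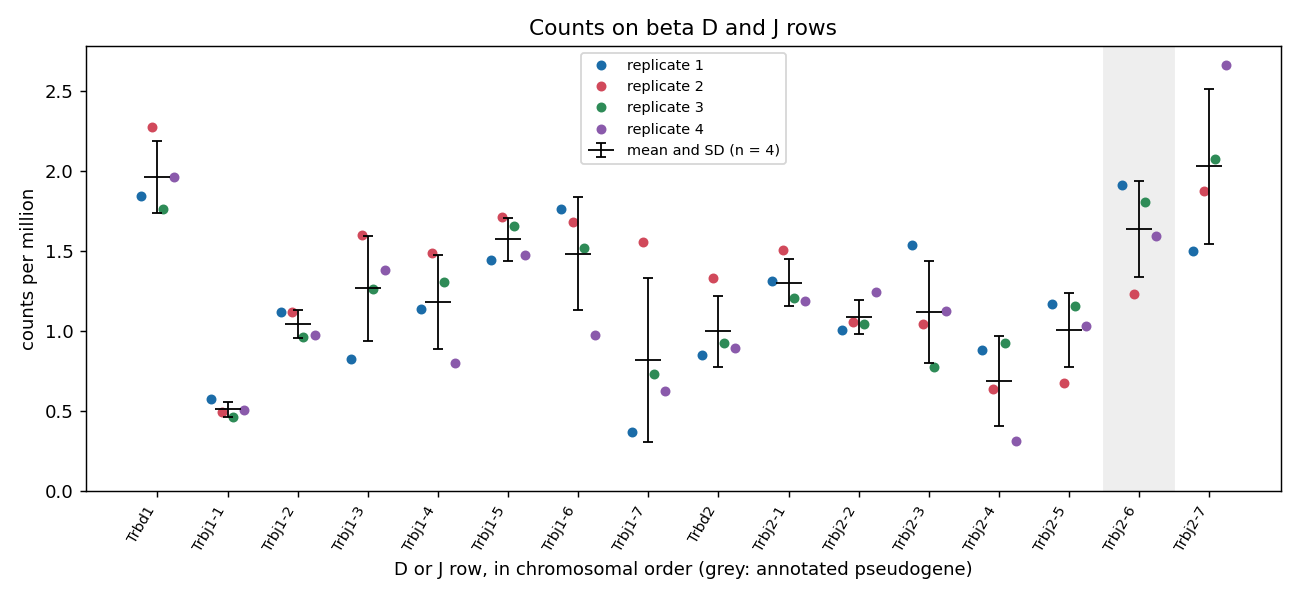
CPM on each D and J row in chromosomal order, with 1 point per library, the mean and SD over 4 libraries, and the pseudogene Trbj2-6 shaded. Trbj2-7 has the highest mean of the J rows, Trbj1-1 the lowest, and replicate 2 stands high on Trbj1-7.

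The second J cluster was not reliably above the first. Summed per length, J2 segments stood at 648, 568, 617 and 642 TPM in replicates 1 to 4, and J1 segments at 486, 665, 523 and 455 TPM. The J2 sum was the higher in 3 of 4 libraries, and replicate 2 went the other way. The mean log2 difference of J2 over J1 was 0.23 ± 0.32 (SD, n = 4), with an adjusted p of 0.25 by an exact two-sided sign-flip permutation test over the 4 libraries, adjusted over 4 differences. With 4 libraries the smallest p this test can give is 0.125. Without replicate 2 the difference was 0.38, and without replicate 4 it was 0.14. The J2 sum includes the pseudogene Trbj2-6. As a mean per segment and without that row, the log2 difference was 0.16 ± 0.30. In plain counts the J2 cluster held 56.3%, 45.4%, 53.2% and 57.6% of J counts, a mean of 53.1%. Leaving out Trbj1-7 and Trbj2-6, a setting chosen after seeing the data, gave a mean of 50.7%.

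The constant genes encode the part of the beta chain that anchors it in the membrane, and each follows its own J cluster. Trbc2 stood at 661, 655, 684 and 748 TPM in replicates 1 to 4, and Trbc1 at 551, 566, 519 and 579 TPM. Trbc2 was the higher in 4 of 4 libraries, by a log2 difference of 0.31 ± 0.09, and the groups of values did not overlap. The adjusted p of the exact sign-flip permutation test was 0.167, on a raw p of 0.125, the smallest the test allows. Trbc2 held 53.4 ± 1.51% of constant gene counts. Its shares were 52.6%, 51.7%, 54.9% and 54.4% in replicates 1 to 4. Replicate 2 had the lowest share of Trbc2 and also of the J2 cluster, but the order of the other libraries differed between these shares.

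The levels of both constant genes are uncertain because they share sequence. Their first exons of 375 bases differ at 1 base, printed here in capitals within bases 230 to 289 of the transcript.
Trbc2, chr6:41546730-41548352: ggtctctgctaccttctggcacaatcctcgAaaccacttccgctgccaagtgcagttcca
Trbc1, chr6:41538218-41539881: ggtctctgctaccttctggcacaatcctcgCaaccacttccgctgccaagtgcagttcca
Of the 50-base stretches, 56.0% in Trbc2 and 58.9% in Trbc1 occur in no other gene's transcript, and at 100 bases the shares are 69.1% and 71.3%. Fragments that map to both are not in these counts, and the deposited lengths still include the shared exon, so both TPM values leave out fragments that the length accounts for.

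As counted, the summed beta constant level was close to that of the alpha chain. The beta sum leaves out fragments that map to both constant genes, so the difference from Trac is uncertain. Trbc1 plus Trbc2 stood at 1212, 1221, 1203 and 1327 TPM in replicates 1 to 4, and Trac, the alpha constant gene, at 1090, 1173, 1169 and 1295 TPM. The beta sum was the higher in 4 of 4 libraries, by a log2 difference of 0.07 ± 0.06 (adjusted p = 0.167, exact sign-flip permutation test). In CPM without length the sign turned, at -0.31, since Trac is longer than either beta gene. Without replicate 1 the difference was 0.04.

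The V segments summed to 935, 1079, 961 and 1069 TPM, and the constant genes to the levels above, which leave out fragments that map to both. The V sum lay under the constant gene sum in 4 of 4 libraries, and the log2 difference of V over C was -0.30 ± 0.08 (adjusted p = 0.167, exact sign-flip permutation test). In plain counts there were 46.2 ± 2.79 V counts and 6.42 ± 0.531 J counts for each 100 constant gene counts.

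**Figure D4:**
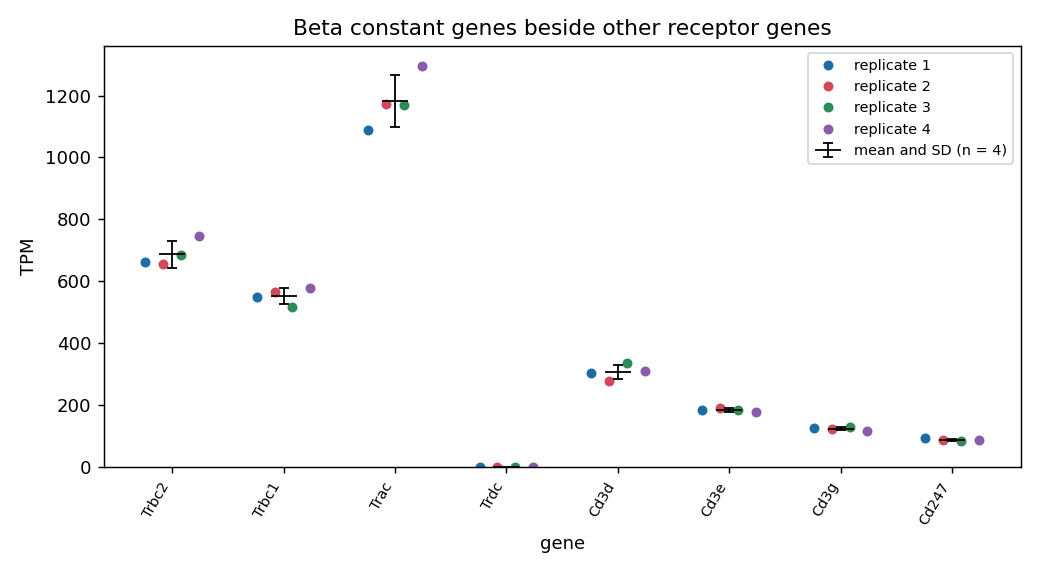
TPM of both beta constant genes, the alpha and delta constant genes and the 4 CD3 genes, with 1 point per library and the mean and SD over 4 libraries. Trbc2 lies above Trbc1 in every library, Trac near their sum, and Trdc at 1.16 TPM.

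The other parts of the receptor complex were present as in an alpha-beta T cell. Of 13 receptor chain, CD3 and coreceptor genes, 7 were at 1 TPM or more in every library. Of the coreceptors, Cd4 was at 656 ± 16.2 TPM, Cd8a at 0.243 and Cd8b1 at 11.53. Cd3d stood at 308 ± 23.2 TPM, Cd3e at 185 ± 5.37, Cd3g at 124 ± 4.80 and Cd247, the zeta chain, at 88.9 ± 3.10 (SD, n = 4). Ptcra, the chain that pairs with beta before alpha is made, had 6 counts in replicate 2 and 0 in the others. The gamma constant genes Tcrg-C1, Tcrg-C2 and Tcrg-C4 averaged 0.0538, 0.472 and 0.193 TPM, and the delta constant gene Trdc 1.16 ± 0.353 TPM.

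Of the genes of V(D)J recombination, Rag1, Rag2 and Dntt were near 0, while the end-joining genes were present. Of 14 such genes, 11 were at 1 TPM or more in every library. Rag2, which forms the recombinase with Rag1, had 0 counts in every library, and Rag1 had 43, 11, 43 and 6 counts (0.157 TPM). Dntt, which adds untemplated bases at the junctions, had 54, 16, 22 and 23 counts (0.578 ± 0.158 TPM). The end-joining genes Xrcc5 and Xrcc6, which encode the Ku proteins, stood at 98.8 ± 5.68 and 70.0 ± 1.22 TPM. The kinase gene Prkdc was at 16 ± 0.995 TPM, and Lig4 and Xrcc4, which encode the ligase complex, at 9.32 ± 1.23 and 6.00 ± 0.280. Nhej1 averaged 12 TPM, the hairpin-opening nuclease gene Dclre1c 6.33, and the polymerase genes Polm and Poll 32.5 and 55.0. The DNA-bending cofactors Hmgb2 and Hmgb1 averaged 360.2 and 84.6 TPM.

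The other genes within and beside the locus were nearly silent. Of 12 checked, 7 had 0 counts in all libraries, and Ephb6, a kinase-family receptor gene just downstream of Trbv31, was the single one at 1 TPM or more in every library, at 10.8 ± 0.955 TPM (SD, n = 4). Among the trypsinogen genes that lie between the V block and Trbd1, Try5 had 5, 0, 31 and 8 counts, Prss2 had 10, 1, 0 and 0, Try10 had 5, 0, 0 and 2, and Prss1 had 1 count in replicate 3. Prss3, Prss58, Try4, Moxd2, Trpv5, Trpv6 and Kel made up the 7 at 0. Trbd1, which lies downstream of the trypsinogen genes, had at least 101 counts in every library.

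Spread between libraries was tested across all genes with 1 edgeR quasi-likelihood fit, in which a gene is called when its dispersion exceeds that of genes of its abundance. A filter on low counts, which asks for a minimum level in every library, came first. It left out genes near 0 in some libraries and high in others, such as Eif2s3y, with 13, 10, 4285 and 3933 counts in replicates 1 to 4. Of 13625 tested genes, 0.00734% were called at an adjusted p under 0.05, which is 1 gene, Xist. Without the filter 98 of 23106 genes were called, with 0 of 43 members. Of the 53 members, 39 passed the filter on low counts and 0 were called. The 14 left out were Trbv21 and the 13 V pseudogenes. With so few genes called, 0 of 39 does not set the members apart from other genes. At an unadjusted p under 0.05, 1 of the 39 members passed, Trbj1-7, beside 4.7% of all tested genes. limma with a trend and DESeq2's dispersion outliers also called 0 members, and limma had 1 member at an unadjusted p under 0.05.

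The 3 most uneven members were 2 J segments and 1 V segment. Trbj1-7, at 0.370, 1.55, 0.733 and 0.622 CPM in replicates 1 to 4, had a dispersion 4.73 times the trend (unadjusted p = 0.0452 and adjusted p = 0.965 from the edgeR quasi-likelihood fit across all genes). Trbv26, at 1.59, 2.96, 1.29 and 2.06 CPM, had a ratio of 2.80 (adjusted p = 0.965, same fit), and Trbj2-4 a ratio of 2.47 (adjusted p = 0.965). Leaving out replicate 2 brought the count of members at an unadjusted p under 0.05 to 0, and so did leaving out replicate 1.

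The least uneven members were Trbv13-2 at 0.0817 times the trend, Trbv5 at 0.0910 and Trbj1-2 at 0.0993. Trbc2 was at 1.28 and Trbc1 at 0.322. The median log2 ratio over the 39 members was -0.21, against -0.19 over all tested genes. These medians depended on the libraries: without replicate 4 they were -1.02 over members and -0.35 over all tested genes, and without replicate 1 they were -0.86 and -0.42.

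**Figure D5:**
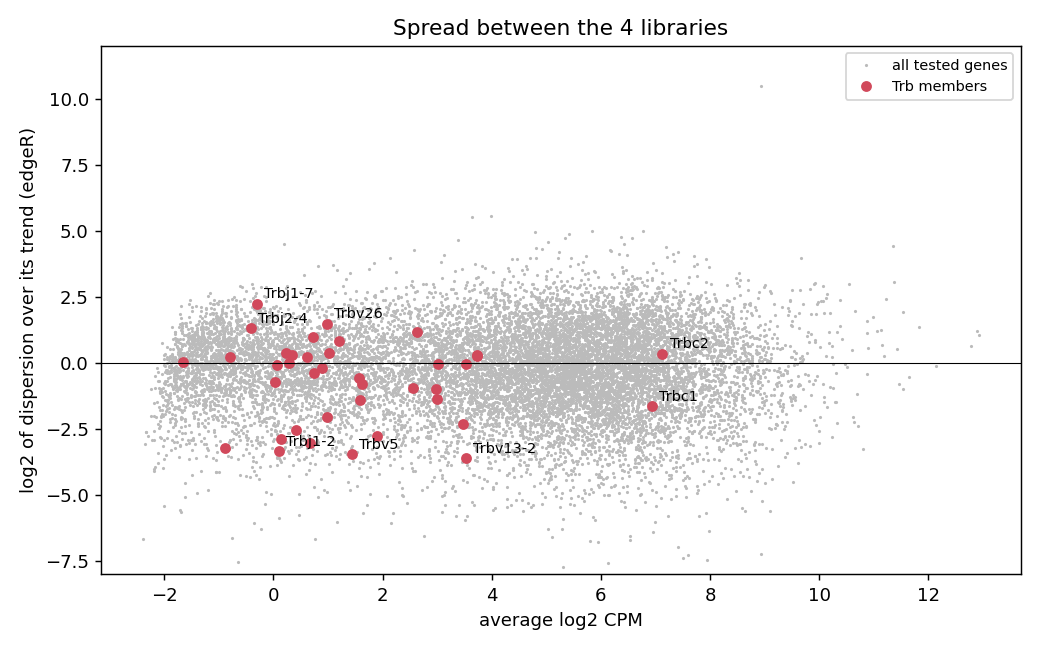
Log2 of the edgeR dispersion over its trend against the average log2 CPM, for the 39 tested members and all 13625 tested genes. Members lie on both sides of 0, with Trbj1-7 highest and Trbv13-2 lowest among them.

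The agreement between libraries can also be given per segment. Over 20 V segments, Pearson's r between the shares of 2 libraries was 0.965 to 0.984 in the 6 pairs of libraries, and over 14 J segments it was 0.331 to 0.807. The points are segments that share a library, and V shares cover a wider range than J shares. Beyond counting error, the variance of a V share was a median of 3.22 times that expected from counting alone, over 21 V rows, and that of a J share 4.83 times, over 14 J rows. Over all J rows and libraries the counts were 16 to 232.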

How the data were processed

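Each deposited file lists raw counts, whole numbers of fragments on each gene, which featureCounts 1.4.6-p4 produced per the file headers. Its options there were -B -p -s 2 (pairs with both mates mapped, counted on the reverse strand), over GENCODE M13 exons summed by gene. The labels name mm10. No source used here gives the aligner's settings. The deposited exon lengths, another column of the same files, were used to compute TPM. CPM and shares of counts within a segment family were also computed.

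Members and gene lists were chosen with earlier results of these data known. The named genes are both constant genes, all D and J rows, the 10 V rows of highest mean share, the other V rows by count class, the 3 members of largest and of smallest dispersion ratio, and the genes of 3 lists. Gene names matched 50376 of 50600 identifiers, and types and sequences came from GENCODE M21.

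The spread test used edgeR 4.0.16 under R 4.3.3 (TMM, filterByExpr, intercept only, robust prior with 6.54 degrees of freedom, Benjamini-Hochberg over all tested genes), checked on simulated data. DESeq2 1.42.0 and limma 3.58.1 were alternatives. Within-library differences used log2(TPM + 0.1) and an exact two-sided sign-flip test over 16 assignments. Depth was 51460018 to 121477975 counts per library. PCR copies were not marked, so limits cover counting error only. Other alternatives were the pseudocount, length, low-count filters, grouped V subgroups, and each replicate left out.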

Additional observations from a re-analysis of the deposited data

Results flagged for a closer look

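Over 51 sets of 4 library values, 3 had a highest or lowest library farther from the rest than Dixon's 95% limit for groups of 4, where chance gives about 1 in 20. All 3 were in replicate 4, the library of lowest depth. The share of Trbj2-2 among J counts was 7.83% in replicate 4, against 6.07%, 5.98% and 6.19% in replicates 1 to 3. The summed level of both constant genes was 278.9 CPM in replicate 4, against 256.0, 253.7 and 257.7 CPM. The effective number of J segments was 11.3 in replicate 4, against 12.4, 12.6 and 12.4.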

How the results depend on the processing

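No paired analysis was possible because the libraries form 1 group, with no other group to pair them with. The differences within a library compare genes. Of 78 alternative values, 69 kept their direction and side of the threshold or moved by less than 1 SD, 8 moved further and 1 changed sign. Part of the 69 was fixed beforehand. Leaving out 1 library cannot move a mean by 1 SD, so shares and effective numbers under those settings had to fall among the 69. The sign-flip test of the log2 differences cannot give a p below 0.125, so none could pass the threshold of 0.05. For those differences only a change of direction could show. Divided by exon length, the effective number of V segments was 14.2, the share of the 5 most used V segments 47.5% and the Trbc2 share 55.4%. With V subgroups summed, these V values were 9.73 and 61.7%. Chosen after seeing the data, leaving out V segments that overlap another gene gave 12.5 and 52.7%, and leaving out Trbj1-7 and Trbj2-6 gave an effective number of J segments of 10.5. In CPM without length, the log2 difference of the beta constant sum and Trac was -0.31, because the lengths differ.

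With each replicate left out in turn, the effective number of V segments ran from 13.4 to 13.7, the share of the top 5 from 49.6% to 50.7%, the pseudogene share from 0.133% to 0.166%, the effective number of J segments from 12.1 to 12.5, the J2 share from 51.6% to 55.7% and the Trbc2 share from 52.9% to 54.0%. The log2 differences ran from 0.14 to 0.38 for J2 over J1, 0.28 to 0.34 for Trbc2 over Trbc1, 0.04 to 0.08 for the beta sum over Trac and -0.34 to -0.27 for V over C. Members called for spread stayed at 0 under every alternative, while all genes called ran from 1 to 98, the highest without a filter on low counts and the next, 43, by DESeq2. The pseudogene share has no value among V genes alone, among rows with at least 50 counts, or with subgroups summed. The median log2 dispersion ratio of the members was -0.52 with at least 50 counts in every library, against -0.17 over all tested genes. J rows held 16 to 232 counts per library. The variance of their shares was a median of 4.83 times that expected from counting alone, against 3.22 times for V rows.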
